A study of Mus musculus with 24 samples.

Results

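The 9 genes described here, Pth, Gcm2, Casr, Chga, Chgb, Grp, Scg5, Scg2 and Calca, are known from parathyroid glands, thyroid C cells and other neuroendocrine cells. They were listed by name and are 9 of the 35855 genes in the tables. They were chosen with their high levels in 1 of the sorted groups already known, so their contrasts with that group are given as descriptions, without a test. The data are RNA abundances in 24 libraries, each made from 1000 epithelial cells sorted from the tracheas of naïve wild-type female mice of the C57BL/6 strain. All groups shared this genotype and carried no treatment. BCAM high and BCAM low cells were sorted by their level of basal cell adhesion molecule, a surface receptor for laminin. By the series title both belong to the basal cells, which renew the airway epithelium, and the third group is labelled as differentiated epithelial cells. Each group has 8 libraries, with replicates 1 to 5 in batch 1 and 6 to 8 in batch 2, and the sources used here do not say what a batch is. The age of the mice, the number of mice per library and whether same-numbered libraries came from the same mice are also not given. The p-values therefore measure only the spread between these libraries, which may be technical.

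Parathyroid chief cells sense extracellular calcium through the receptor encoded by Casr and release parathyroid hormone, the product of Pth, when calcium falls. Gcm2 is the transcription factor that parathyroid glands need in order to form. Chga, Chgb and Scg2 encode granins, acidic proteins packed into the secretory granules of hormone-releasing cells, and Scg5 encodes a granule chaperone for the prohormone convertase made from Pcsk2. Calca gives calcitonin mRNA in thyroid C cells and mRNA for calcitonin gene-related peptide (CGRP) in neurons, by a choice of last exons. Grp encodes gastrin-releasing peptide, which airway neuroendocrine cells and neurons release. The thyroid and parathyroid glands lie against the trachea.

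Each of the 9 genes had more counts in the differentiated libraries than in either BCAM group, and within the differentiated group they did not vary as 1 set. Pth, Chga, Gcm2 and Casr were highest in library 2 and low in batch 2. Grp and Scg5 were present in all 8 libraries and highest in batch 2, as were thyroid follicle genes. Calca and Scg2 were highest in library 5 and next highest in library 7. Chgb stayed between 0 and 8 counts. These are orders of the libraries, seen after the genes had been chosen. In such pooled samples, fewer cells of a type and less RNA per cell cannot be told apart.

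Estimated counts summed to between 1824619 and 4440072 in a library. Levels below are CPM, counts relative to each library's scaled total. The abundances of the genes described here are ranked against each other only as TPM, which also divide by transcript length. Ratios between genes and sums over genes in counts or CPM are not corrected for length. The labelled cell types were checked by marker lists. The summed level of 6 basal cell genes was 2624 to 4133 CPM in BCAM high, 1436 to 2085 CPM in BCAM low and 8.44 to 29.4 CPM in differentiated libraries. The 5 secretory cell genes summed to 280238 to 406680 CPM in batch 1 and 12726 to 83318 CPM in batch 2 of the differentiated group. All 14 thyroid follicle genes had counts in that group, and their sum was 14018 to 26284 CPM in batch 1 and 50145 to 118221 CPM in batch 2. In the BCAM libraries the same sum was 22.3 to 1307 CPM.

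**Figure D1:**
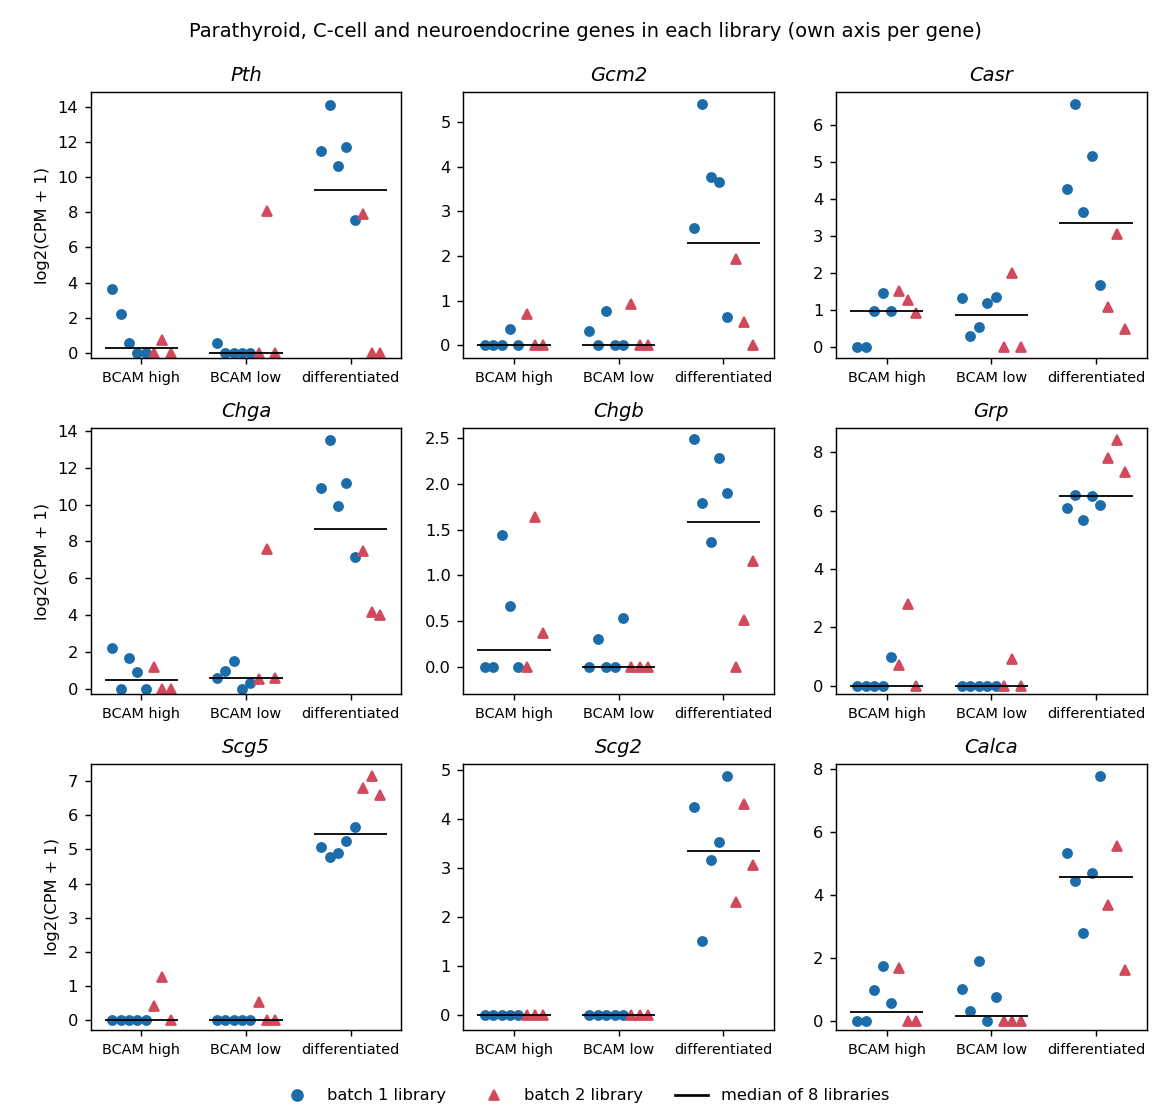
Level of each gene in each library, as log2(CPM + 1) on the vertical axis (each gene has its own axis), by sorted group on the horizontal axis; circles are batch 1, triangles are batch 2 and lines are medians of 8 libraries. The differentiated libraries lie above every BCAM library for Grp, Scg5 and Scg2, while Pth and Chga also reach 264 and 192 CPM in 1 BCAM low library.

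Pth (ENSMUSG00000059077, chromosome 7) was the most abundant of the 9 genes per length in the differentiated group, at 3312 ± 5811 TPM (mean ± SD, n = 8). Its CPM values in batch 1 were 2824, 17647, 1607, 3270 and 186 in libraries 1 to 5. In batch 2 they were 234 in library 6 and 0 in libraries 7 and 8. Library 2 alone held 28519 of the 43112 Pth counts of the group, and without it the mean was 1160 ± 1409 CPM (n = 7). The spread thus ran from 0 to 28519 counts among libraries that carry the same label.

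Chga (ENSMUSG00000021194, chromosome 12) repeated the order of Pth. Its levels were 1924, 11434, 954, 2294 and 144 CPM in differentiated libraries 1 to 5, and 178, 17.1 and 15.2 CPM in libraries 6 to 8. The mean was 687 ± 1174 TPM (SD, n = 8). From highest to lowest, both genes placed the libraries as 2, 4, 1, 3, 6, 5 and then 7 and 8. In the 6 differentiated libraries with at least 10 counts of both genes, 1.30 to 1.68 Pth counts were found per Chga count, while the Pth level itself varied from 186 to 17647 CPM. Per length, the ratio of Pth to Chga in those libraries was 3.51 to 5.33 TPM per TPM. Libraries 7 and 8 departed from this ratio, since they held 40 and 37 counts of Chga with no count of Pth.

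Casr (ENSMUSG00000051980, chromosome 16) and Gcm2 (ENSMUSG00000021362, chromosome 13) were much less abundant, at 9.87 ± 15.0 and 2.97 ± 5.18 TPM (SD, n = 8). Casr was 18.4, 92.8, 11.6, 34.4 and 2.18 CPM in differentiated libraries 1 to 5, and 1.13, 7.25 and 0.412 CPM in libraries 6 to 8. Gcm2 was 5.18, 41.5, 12.7, 11.7 and 0.546 CPM in libraries 1 to 5, and 2.82, 0.427 and 0 CPM in libraries 6 to 8. Both were thus highest in library 2, with 150 counts of Casr and 67 of Gcm2, and both held 1 count or none in library 8. Of the Gcm2 counts in the group, 70.5% were assigned to a transcript annotated with a retained intron, so they do not all stand for coding mRNA.

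Over the 8 differentiated libraries, the correlation of log2(CPM + 1) between Pth and Chga was 0.974 (Pearson) and 0.994 (Spearman). These correlations are descriptions over libraries that share a laboratory, a sort gate and batches, and batch 1 (5 libraries) and batch 2 (3 libraries) are each too small for one of their own. The 2 libraries farthest from the median of Pth were 7 and 8, which held no Pth count and departed from the ratio above. Without them the Pearson value of Pth with Chga was 0.999. Library 2, the highest, stayed in, so this rise is no check on extreme libraries. Pth gave 0.885 with Gcm2 and 0.726 with Casr, and Chga gave 0.941 with Gcm2 and 0.845 with Casr. The Pearson value of Casr with Chga dropped to 0.636 without the 2 libraries farthest from the median of Casr, 2 and 8, so that pair leans on them. That of Pth with Casr instead rose to 0.984 without libraries 7 and 8. These values thus depend on which gene sets the libraries left out.

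**Figure D2:**
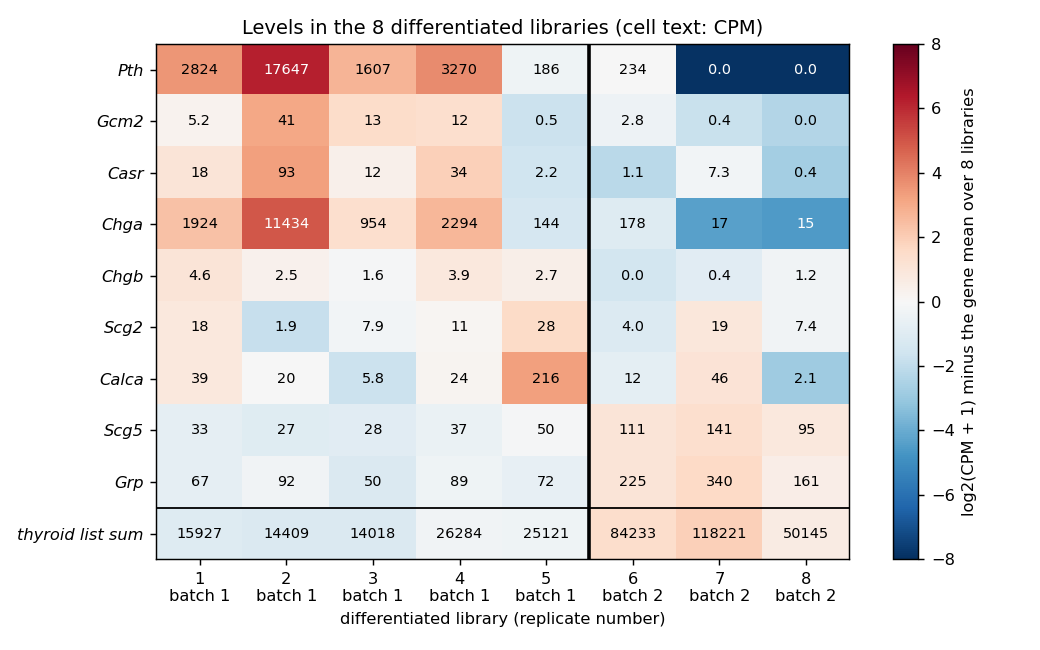
Colour shows log2(CPM + 1) minus the mean of each row over the 8 differentiated libraries, with the CPM value written in each cell; rows are genes and the sum of 14 thyroid follicle genes, columns are libraries and the vertical line parts the batches. Pth, Gcm2, Casr and Chga are darkest red in library 2, whereas Grp, Scg5 and the thyroid sum are red in libraries 6 to 8.

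Promoters were examined for the granin genes and Pth because granin promoters are known for a cAMP response element, the DNA site of the factor CREB. The sequences come from RefSeq on GRCm38.p6, in windows of 250 bases before to 50 bases after the gene start, and 8 of the 9 genes had a window that was used. The stretches of 100 bases that hold a matching site are given 5′ to 3′ on the strand of the gene, with the site in capitals.
Chgb, chr2:132781530-132781629, plus strand: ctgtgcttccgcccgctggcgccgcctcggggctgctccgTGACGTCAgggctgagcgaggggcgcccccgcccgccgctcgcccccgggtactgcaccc
Scg2, chr1:79440035-79440134, minus strand: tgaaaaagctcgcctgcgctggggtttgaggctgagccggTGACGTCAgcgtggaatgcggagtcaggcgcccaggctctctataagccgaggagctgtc
Chga, chr12:102554841-102554940, plus strand: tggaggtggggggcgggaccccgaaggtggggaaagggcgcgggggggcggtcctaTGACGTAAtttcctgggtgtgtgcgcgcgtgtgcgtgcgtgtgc
Pth, chr7:113388574-113388673, minus strand: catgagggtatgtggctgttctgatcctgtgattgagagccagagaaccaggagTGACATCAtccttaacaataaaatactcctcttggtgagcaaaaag

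The full palindrome TGACGTCA, searched on both strands, was found in Chgb and Scg2, starting 72 and 68 bases before the gene start, and in 1.79% of all 32851 windows. Chga and Pth, which varied together, carried different variants of it. TGACGTAA started 44 bases before the Chga start and stood in 0.499% of windows, and TGACATCA started 46 bases before the Pth start and stood in 3.62%. Both variants were chosen after these windows had been read, and the Calca window also held TGACATCA, on the strand opposite to the gene. The Gcm site ATGCGGGT, in 0.256% of windows, was in none of the 8 windows. The genes with the full palindrome were the less abundant granins: Scg2 and Chgb, at 3.64 ± 2.67 and 0.511 ± 0.382 TPM (SD, n = 8), against 687 TPM for Chga. A match describes the letters only.

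Chgb (ENSMUSG00000027350, chromosome 2) did not follow its relative Chga. It had 8, 4, 3, 7 and 5 counts in differentiated libraries 1 to 5, and 0, 1 and 3 counts in libraries 6 to 8, up to 4.61 CPM. The BCAM high libraries together held 16 counts and the BCAM low libraries 3. Summed counts were 3.58-fold higher in differentiated than in BCAM high (95% interval of counting error 1.898 to 7.004), the smallest such ratio among the 9 genes. Its Pearson value with Chga over the differentiated libraries was 0.614, from at most 8 counts per library.

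Grp (ENSMUSG00000024517, chromosome 18) was 67.4, 91.6, 50.1, 89.4 and 71.5 CPM in differentiated libraries 1 to 5, and 225, 340 and 161 CPM in libraries 6 to 8. Scg5 (ENSMUSG00000023236, chromosome 2) was 32.8, 26.6, 28.5, 37.2 and 49.7 CPM in libraries 1 to 5, and 111, 141 and 95.5 CPM in libraries 6 to 8. For both genes every batch 2 library lay above every batch 1 library. In summed counts the ratio of batch 2 to batch 1 was 3.31 for each (counting intervals 3.02 to 3.63 for Grp and 2.89 to 3.78 for Scg5). The same ratio was 0.0132 for Pth and 0.0190 for Chga, in the opposite direction. Between the batches of the differentiated group, 20.1% of all 12211 genes tested were called, and nothing is read from the genes described here in that contrast, since their batch pattern was known when they were chosen.

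Grp and Scg5 varied with the thyroid follicle genes, of which Tg, the gene of thyroglobulin, made up most of the sum. The Pearson value with the summed thyroid list over the 8 differentiated libraries was 0.952 for Grp and 0.980 for Scg5, and 0.919 between Grp and Scg5. Per 1000 CPM of Tg, Grp stood at 2.84 to 6.88 CPM and Scg5 at 1.26 to 2.21 CPM, whereas Pth ran from 0 to 1326 CPM. Both genes and the thyroid sum stepped up between the batches. Inside batch 1, library 2 was the highest of the 5 in Grp and the lowest in Scg5. The 2 libraries farthest from the median of Grp were 6 and 7, both of batch 2. Without them the Pearson value of Grp with Scg5 was 0.763 and the Spearman value 0.371, against 0.738 for Spearman over all 8. Without the 2 farthest, Scg5 kept a Pearson value of 0.959 and Grp one of 0.818 with the thyroid sum. The Pearson value with the thyroid sum was negative for Pth (-0.79), and between Pth and Grp it was -0.72. Without libraries 7 and 8, the farthest from the median of Pth and both of batch 2, the value between Pth and Grp was -0.32.

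**Figure D3:**
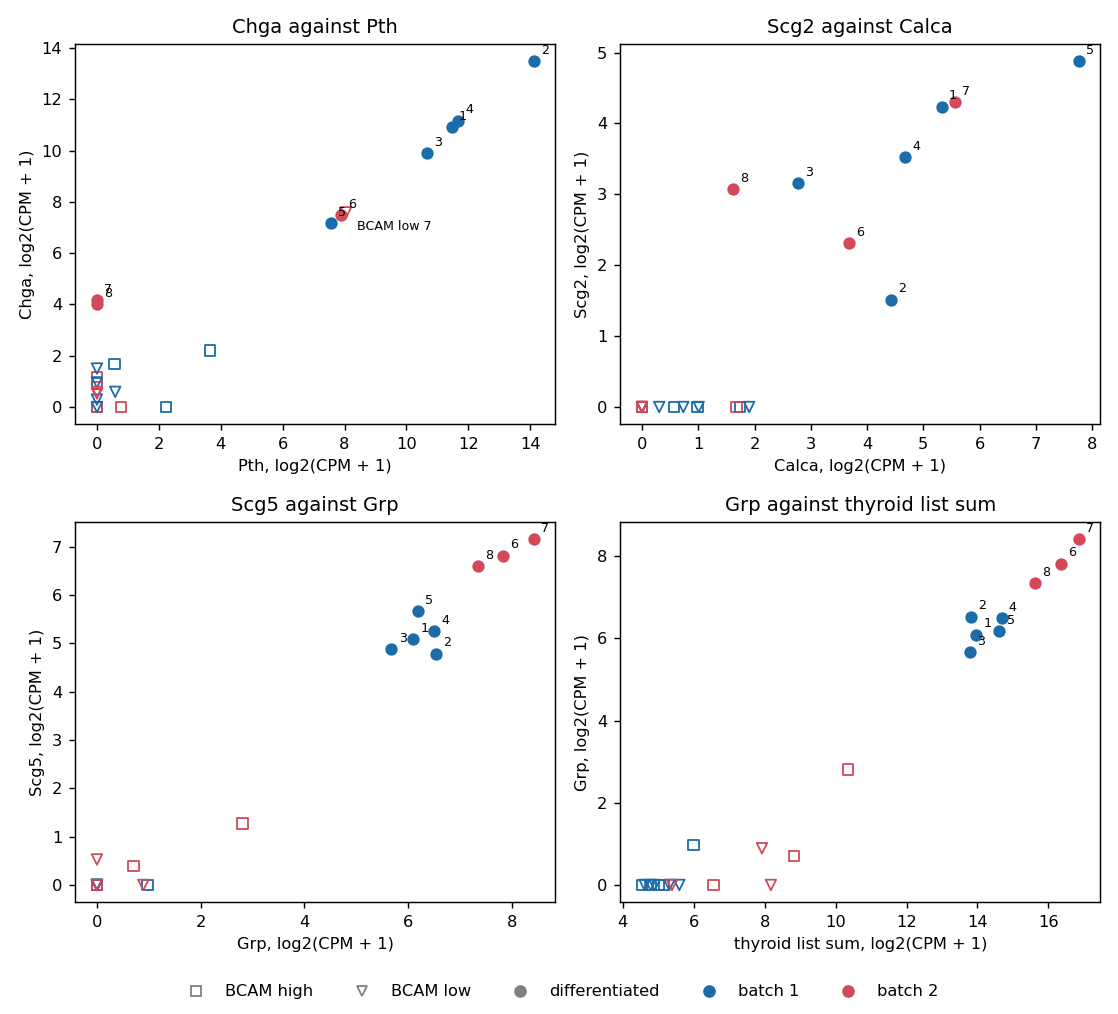
Pairs of genes, each axis in log2(CPM + 1) of the named gene or of the sum of 14 thyroid follicle genes; filled circles numbered by replicate are differentiated libraries, open squares BCAM high and open triangles BCAM low, blue for batch 1 and red for batch 2. Pth and Chga lie along a line that includes BCAM low library 7, Calca and Scg2 are both highest in differentiated library 5, and Grp is higher in the 3 batch 2 differentiated libraries (161 to 340 CPM) than in the 5 of batch 1 (50.1 to 91.6 CPM).

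Calca (ENSMUSG00000030669, chromosome 7) was 39.2, 20.4, 5.80, 24.4 and 216 CPM in differentiated libraries 1 to 5, and 11.9, 46.07 and 2.06 CPM in libraries 6 to 8. Library 5, the highest for Calca, held 186 CPM of Pth, and library 2, the highest for Pth, lay near the middle for Calca. The Pearson value between Calca and Pth was 0.168, and between Calca and the thyroid sum -0.057. Scg2 (ENSMUSG00000050711, chromosome 1) was 17.9, 1.86, 7.91, 10.6 and 28.4 CPM in libraries 1 to 5, and 3.95, 18.8 and 7.41 CPM in libraries 6 to 8. Both genes placed libraries 5, 7, 1 and 4 in that order at the top, with a Spearman value of 0.786 and a Pearson value of 0.612. For Scg2 these levels rest on 3 to 52 counts per library.

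The last exons tell which product the Calca transcripts encode. In calcitonin mRNA exon 3 is joined to the calcitonin exon, which ends the transcript, and in CGRP mRNA it is joined to the CGRP exons. The end of exon 3 (30 bases, lower case) and the start of the next exon (60 bases, capitals), taken from the GENCODE M21 transcripts, show the fork.
Calca-202, calcitonin exon: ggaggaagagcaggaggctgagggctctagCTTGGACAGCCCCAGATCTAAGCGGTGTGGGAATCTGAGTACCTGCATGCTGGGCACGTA
Calca-201, CGRP exon: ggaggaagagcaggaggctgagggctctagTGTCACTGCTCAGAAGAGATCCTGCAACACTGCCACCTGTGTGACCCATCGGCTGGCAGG

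Over the 8 differentiated libraries, transcripts with the calcitonin exon held 561 of the estimated Calca counts, or 81.8%, and those with the CGRP exons held 79.2, or 11.6%. The other 45.5, or 6.64%, went to transcripts with neither. As shares of summed Calca TPM these were 72.2%, 14.5% and 13.3%. Library 5, the highest, had 364 counts of the calcitonin form, 92.0% of its Calca counts, and library 7 had 90.8, or 84.1%. Of the 79.2 counts with the CGRP exons, 33.2 belonged to Calca-203, which is annotated with a retained intron and so does not stand for coding mRNA. In library 2, 52.5% of 33 counts were on the CGRP exons, but 16.0 of those 17.3 counts were on Calca-203. Reads in exons that both forms share are divided by the counting model, so shares at such low counts are uncertain. In the BCAM groups all Calca counts together were 21 and 20.

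**Figure D4:**
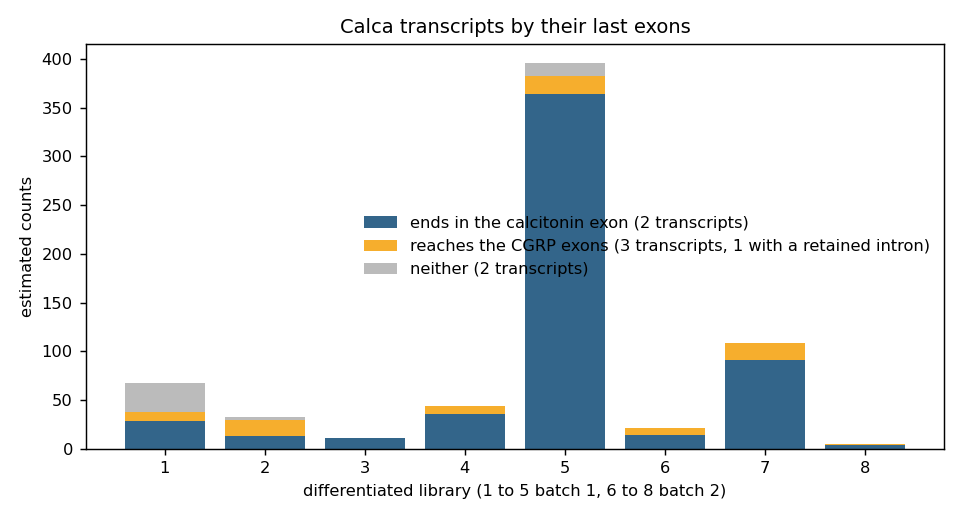
Estimated counts of Calca transcripts (vertical axis) in each differentiated library (horizontal axis), stacked by last exons: calcitonin exon, CGRP exons or neither. Library 5 holds 364 counts with the calcitonin exon, and library 2 holds more counts on the CGRP exons than on the calcitonin exon, 16.0 of them on a transcript with a retained intron.

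In the BCAM libraries most of the 9 genes were near the limit of detection. Scg2 had 0 counts in all 16, so that it was at least 116-fold higher in differentiated than in BCAM high and at least 113-fold higher than in BCAM low, against a floor of 3 counts over a group. Calca was 60.2-fold and 61.2-fold higher in summed counts, and Casr 19.8-fold and 18.5-fold. Gcm2 had 3 counts in BCAM high, a ratio of 78.8 (counting interval 26.4 to 387), and 6 counts in BCAM low, a ratio of 38.1 (17.0 to 106). For Grp and Scg5 the BCAM high group held 23 and 5 counts, ratios of 180 and 396. These intervals cover counting error only, and the spread between differentiated libraries is far wider for Pth, Chga, Casr, Gcm2 and Calca.

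Fitted log2 differences of BCAM high from differentiated were -10.77 (SE 2.45) for Pth, -11.40 (SE 2.16) for Chga, -7.32 (SE 0.45) for Grp and -8.19 (SE 0.36) for Scg5. The other 5 genes did not pass the filter on low counts. For BCAM low the fitted differences were -7.49 (SE 3.27) for Pth and -7.58 (SE 2.58) for Chga. Without BCAM low library 7 they were -15.05 and -11.76, and leaving out any other library kept them at -6.10 or below and -6.12 or below. All differentiated libraries lay above all BCAM high libraries for 4 of the 9 genes, Chga, Grp, Scg5 and Scg2, and above all BCAM low libraries for 3, Grp, Scg5 and Scg2. The same held for 3.27% of the 30467 genes with at least 1 count against BCAM high and 1.73% against BCAM low, and for 7.3% and 3.83% of the 12211 genes that passed the filter. By the test, over all genes that passed, 41.3% were called between BCAM high and differentiated (19.4% higher in BCAM high and 22% lower). Between BCAM low and differentiated 33.5% were called (16.3% higher in BCAM low and 17.1% lower). No call on the genes described here is read from these contrasts, and nothing is read from the counts of genes without overlap. The 2 contrasts share the differentiated libraries.

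Library 7 of the BCAM low group stood apart in Pth and Chga. It held 615 of the 617 Pth counts of its group (264 CPM) and 447 of the 464 Chga counts (192 CPM), while the other 7 libraries held 0 to 2 counts of Pth and 0 to 8 of Chga. Its ratio of 1.38 Pth counts per Chga count lay inside the range of the differentiated libraries, although differentiated library 7 had no Pth. In BCAM high library 1, the other BCAM library with at least 10 counts of both genes, the ratio was 3.22 (42 against 13 counts), outside that range. Without BCAM low library 7 the group held 2 Pth counts, and the fold of differentiated over BCAM low was 35277 (counting interval 9765 to 291303) in place of 125. For Chga the fold without it was 2735 in place of 109. BCAM low library 7 also had the highest BCAM level of Kl (5.14 CPM), the coreceptor gene of fibroblast growth factor signalling in parathyroid and kidney, and of Casr (3.001 CPM, 7 counts), but 0 counts of Gcm2 and Gata3. The summed thyroid list in it was 242 CPM, below BCAM low library 6 (288 CPM), which held no Pth. What brought these counts into the library was not tested.

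In the BCAM high group the highest Pth was in library 1, with 42 of 60 counts (11.6 CPM) and 13 counts of Chga. Grp and Scg5 were instead highest in BCAM high library 7, with 17 of 23 and 4 of 5 counts (6.01 and 1.41 CPM). That library also had the highest thyroid sum of all 16 BCAM libraries, 1307 CPM. Pth and Grp were thus highest in different BCAM high libraries, whereas both Grp counts of the BCAM low group lay in library 7, the library with its Pth.

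BCAM high against BCAM low was also tested, for genes chosen with earlier results of these data known. The 4 that passed the filter did so mainly through their counts in the differentiated libraries. Most BCAM libraries held few or no counts of them, so a lack of calls here says little about a difference. Of the 4 genes that passed the filter, 0 were called by edgeR's quasi-likelihood test with Benjamini-Hochberg adjustment over 12211 genes, of which 7.02% passed (2.43% higher in BCAM high and 4.59% lower), and DESeq2 also called 0. Unadjusted edgeR p-values were under 0.05 for 1 of the 4, Grp, and the lowest DESeq2 adjusted p was 0.0514, for Chga. Pth differed by -3.28 on the log2 scale (SE 2.65, edgeR adjusted p = 0.538) and Chga by -3.81 (SE 2.13, edgeR adjusted p = 0.328). Both signs rested on BCAM low library 7. Without it, the differences were 4.52 for Pth (edgeR adjusted p = 0.350) and 0.92 for Chga (edgeR adjusted p = 0.831). In batch 1 alone they were 4.55 and 0.85 (edgeR adjusted p = 0.393 and 0.867), and in batch 2 alone Pth did not pass the filter, while Chga differed by -7.09 (edgeR adjusted p = 0.339). Grp and Scg5 had 2 counts and 1 count in BCAM low, so no fitted fold is given, and their edgeR adjusted p-values were 0.135 and 0.401. In the fit without the filter the other 5 genes were not called either, and Chgb had an unadjusted edgeR p of 0.0296 (edgeR adjusted p = 0.250), from 16 counts in BCAM high and 3 in BCAM low.

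The genes most alike in pattern were sought among 11405 genes reaching 10 CPM in at least 1 differentiated library, by Pearson r of log2(CPM + 1) over the 8 libraries. For Pth the first was Chga, and for Chga the first was Pth. Gcm2 came ninth for Chga. Outside the 9 genes and without predicted genes, those closest to Pth were Ormdl1 (0.971), Hist2h2aa1 (0.956), Frrs1 (0.956), Aldh16a1 (0.951) and Mea1 (0.945). For Chga they were Ormdl1 (0.960), Frrs1 (0.9501), Serpine2 (0.9498), Aldh16a1 (0.948) and Txn2 (0.945). Some of these varied little: Ormdl1 spanned 0.89 log2 units, against 14.11 for Pth. Wider spans were those of Hist2h2aa1, at 4.502 log2 units and 0 to 21.7 CPM, and of Serpine2, the gene of a secreted protease inhibitor, at 4.16 log2 units and 11.5 to 222 CPM.

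For Grp the closest genes included Cachd1 (0.986), Cpq (0.986), Smoc2 (0.983) and Zfyve21 (0.982). The spans of these 4, 1.82 to 3.08 log2 units, were like that of Grp, 2.74. Smoc2, a matrix protein gene, ran from 63.3 to 541 CPM. Scg5 was only the 251st closest to Grp, at 0.919. For Calca the closest were Trim47 (0.912), Pomgnt1 (0.893), Clic5 (0.886), Psip1 (0.883) and Mettl14 (0.863), with spans of 0.84 to 1.76 log2 units against 6.15 for Calca. With 8 libraries and 11405 genes, high values of r are common.

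Other genes of the same cell types came from 5 lists of 63 genes, not picked by how they moved, for parathyroid development and calcium sensing, C cells, secretory granules, neuroendocrine cells and the receptors of these peptides. Over the differentiated libraries, the Pearson values of the 14 parathyroid genes with Pth ran from -0.31 for Gnaq and 0.0986 for Vdr to 0.839 for Gata3 and 0.876 for Tbx1. Genes of other lists also reached high values, such as 0.804 for the secretory cell gene Scgb1a1, so a high value is not particular to parathyroid genes. Gata3 and Kl were picked for description after their values had been seen. Gata3, a transcription factor of parathyroid development, was 33.4, 47.0, 6.86, 17.2 and 1.64 CPM in differentiated libraries 1 to 5, and 0 to 1.28 CPM in libraries 6 to 8. Kl was 16.1, 55.7, 11.6, 22.2 and 0.546 CPM in libraries 1 to 5, and 1.28 to 3.70 CPM in libraries 6 to 8. The Pearson value of Kl with Pth was 0.752. Both were highest in library 2, and both were low in library 5 and in batch 2, as Pth was.

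Among C-cell genes, Ret, a receptor tyrosine kinase, was 2.22 to 14.2 CPM in batch 1 and 11.9 to 29.0 CPM in batch 2, with a Pearson value of 0.853 with the thyroid sum and 0.163 with Calca. Ddc, the decarboxylase of amine synthesis, had a value of 0.797 with Calca, from 49 counts in the group. Sst, the somatostatin gene of some C cells, had 0 counts in all 24 libraries. The factors Insm1 and Neurod1, which mark airway neuroendocrine cells, had 1 count and 0 counts in the 8 differentiated libraries, and Syp, a vesicle protein gene, had 6. Of the 18 granule genes, 16 had counts there, from 3894 for Pam, which amidates peptides, to 58 for Pcsk2, the convertase gene named above, and 6 for Scg3, while Vgf and Pcsk1n had 0. Of the receptors, Pth1r had 4 counts, Pth2r had 1, Grpr had 6 and Calcr had 0 in the differentiated group.

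Of the 63 listed genes, 29 passed the filter and 12 were called between BCAM high and differentiated, 7 higher and 5 lower in BCAM high. That is 41.4%, near the 41.3% over all genes. On TPM with limma the split was 21 higher and 3 lower, where the median of all genes also moved by 0.75 on the log2 scale. Of the neuroendocrine list 3 of 4 tested genes were called, and among them Cplx2 differed by -2.38 (SE 0.36) and Bex2 by -2.26 (SE 0.36). Of the C-cell list Slc18a2, the vesicular amine transporter, was higher by 1.42 and the transcription factor gene Foxa1 by 0.99, with 2 of 5 called. Of the parathyroid list, 3 of 11 were called, Pax9 (0.78), Gnaq (0.68) and Men1 (0.40), each higher in BCAM high. The Men1 call was lost in 8 of 32 other settings, among them without BCAM high 5 or 6 or differentiated 4, 6, 7 or 8. Both receptor genes tested were called, Ramp1 at -2.28 (SE 0.36) and Calcrl at 1.70 (SE 0.56), which encode parts of the CGRP receptor. Of the granule list 2 of 7 were called, Cadps2 (-1.29) and Pam (-0.66, but 0.55 on TPM with limma).

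Between BCAM low and differentiated 14 of the 29 were called, or 48.3%, beside 33.5% over all genes, with 9 higher and 5 lower in BCAM low (16 and 3 on TPM with limma, whose median of all genes moved by 0.48). Bex2, Cplx2 and Ramp1 differed by -2.09, -1.86 and -1.52. Foxa1 was higher by 1.27 and Slc18a2 by 0.96. Hoxa3, Gnaq and Pax9, of 4 called among 11 parathyroid genes, were higher by 1.39, 0.74 and 0.68. The Pax9 call was lost in 20 of 32 other settings, among them the replicate block, DESeq2 size factors, no batch term, and the fits without any 1 of BCAM high 1, 2, 4, 7 and 8, BCAM low 1 to 6, and differentiated 1, 5, 6 and 7. The Hoxa3 call was lost in 4 of 31, among them without differentiated 4 or 8. Of the granule list 4 of 7 were called, among them Cpe (1.41), Cadps2 (-0.84) and Rab27a (0.62). The Cpe call was lost in 15 of 31 other settings, among them without any 1 of BCAM high 1, BCAM low 1, 2, 4, 7 and 8, and differentiated 1 and 4 to 8. The Rab27a call was lost in 4 of 32, under the replicate block, in batch 1 alone and without differentiated 6 or 8.

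BCAM high against BCAM low gave 1 call among the 29 genes, or 3.45% beside 7.02% over all. This was Calcb, the gene of the second CGRP and a close relative of Calca, which differed by -1.96 on the log2 scale and so was lower in BCAM high (SE 0.52, edgeR adjusted p = 0.0231). Calcb held 205 counts in BCAM high and 979 in BCAM low, while Calca held 21 and 20. The call was lost in 5 of 31 other settings. These were without BCAM high library 4, without the batch term, without the filter, on TPM with limma and in batch 1 alone. In BCAM low, Calcb was 21.4 to 60.8 CPM in batch 1 and 1.01 to 8.82 CPM in batch 2. In BCAM high it was 2.75 to 13.2 CPM and 1.06 to 2.67 CPM.

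Between the batches of the differentiated group 13 of the 29 listed genes were called, or 44.8% beside 20.1% over all genes (9.98% higher and 10.2% lower in batch 2). Of these, 3 were higher and 10 lower in batch 2 (3 and 6 on TPM with limma, whose median of all genes moved by 0.33). Without differentiated library 6 there were 8 calls, and without library 7 there were 7. Cplx2 was higher by 2.68 (SE 0.33), Nkx2-1, a transcription factor of thyroid and airway, by 1.57 (SE 0.30) and Hes6 by 0.88. The parathyroid list had 6 calls among 11 tested genes, all lower in batch 2, led by Tbx1 (-3.33, SE 0.82), Hoxa3 (-3.32, SE 0.93) and Eya1 (-1.63, SE 0.26). Calcb (-4.04, SE 1.03; not called without library 7), Foxa1 (-1.16), Rab27a (-0.82) and Pam (-0.59) were also lower. The Rab27a call was lost without library 7, that of Pam without library 6 or 7, both on TPM with limma, that of Hoxa3 without library 6 and that of Hes6 without library 8. Secretory cell genes, which were lower, and thyroid genes, which were higher, differed between the same libraries, as given above, and their part in these calls was not tested.

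Markers of other cell types were measured in the same libraries. The 9 genes of neurons and glia summed to 8.97 to 35.8 CPM in the differentiated group, with counts for 8 of the 9 (Prph was at 0), and S100b held 250 of their counts. The 5 genes of thymic epithelium summed to 4.52 to 18.5 CPM there and to 2.10 to 15.7 CPM in BCAM high. The 6 tuft cell genes summed to 10.7 to 51.2 CPM. The 3 endothelial genes summed to 4.03 to 34.98 CPM, the 4 fibroblast genes to 0.411 to 252 CPM and the 5 genes of ciliated cells to 83.4 to 444 CPM. The 6 immune genes summed to 18780 to 25241 CPM in batch 1 and 1351 to 14493 CPM in batch 2, most of it from the lysozyme gene Lyz2. The part of these cell types in the values above was not tested.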

How the data were processed

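RNA abundance was measured in 24 libraries by SmartSeq2 on 1000 sorted cells each, sequenced as pairs of 38 bases, per the labels' protocols. Each deposited table gives, per the file headers, an estimated count and a TPM value for every transcript. The submitters' processing notes name kallisto 46.1, Picard and GRCm39, with no role for each. For its index and annotation, no source used here gives a name. The authors deposited the estimated counts without normalization, and the TPM values deposited are scaled to transcript length and library.

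Of 117497 transcripts, 116374 matched GENCODE M21 (GRCm38) by Ensembl identifier without version. The other 1123 held 0.317% to 0.594% of a library's counts and were left out. Since the builds differ, only RefSeq promoter positions are printed. Estimated counts were summed per gene and rounded. The main test was the robust quasi-likelihood F-test of edgeR 4.0.16 with TMM factors, on 12211 genes kept by its default filter, with a mean per group and batch as covariate. A second fit, with 1 mean for each group in each batch, gave the batch contrast. Calls are at a Benjamini-Hochberg adjusted p under 0.05. CPM are counts over TMM-scaled totals of the filtered genes. The SE is the absolute log2 difference over the root of F. The scripts were tested on simulated data.

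Intervals are exact conditional binomial (95%), and floors are 3 counts over a group. The reads were amplified and carry no molecular identifiers, so they are not independent molecules and both cover counting error only. Alternatives were DESeq2 1.42.0 (size factors, and the Wald test), no filter, no batch term, limma 3.58.1 on log2(TPM + 0.1), the replicate number as a block, each batch alone and each library left out. Named genes were the 9 listed, up to 3 called genes of each list with the largest change, the 5 genes most alike in pattern, and list genes whose level is needed beside a member. Some genes that met this rule are not reported here. The 9 genes and all lists were chosen with earlier results of these data known.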

Additional observations from a re-analysis of the deposited data

Results flagged for a closer look

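In 11 of 21 combinations of gene and group with more than 3 counts, the highest library stood apart from the rest by Dixon's test of the gap over the range, where chance flags about 1 in 20 for normally distributed values. These CPM are skewed and hold many zeros, and the share that chance flags in such values was not computed. In the differentiated group, library 2 stood apart for Pth (17647 CPM), Chga (11434 CPM), Casr (92.8 CPM) and Gcm2 (41.5 CPM), and library 5 for Calca (216 CPM). Among BCAM low libraries, library 7 stood apart for Pth (264 CPM, 615 counts) and Chga (192 CPM, 447 counts), and library 3 for Calca (2.75 CPM, 12 counts). Among BCAM high libraries, library 1 stood apart for Pth (11.6 CPM, 42 counts), and library 7 for Grp (6.01 CPM, 17 counts) and Scg5 (1.41 CPM, 4 counts).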

How the results depend on the processing

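Of the 4 genes described here with a fit, 4 were lower in each BCAM group than in differentiated. Without the filter on low counts 9 of 9 were fitted and lower in both contrasts, and leaving out 1 library gave 4 to 5. The genes were chosen with their high differentiated levels known, so this direction is a description only. Most BCAM libraries held few or no counts of these genes, so a lack of calls between BCAM high and BCAM low says little. None of the genes was called in that contrast under any setting, leave-one-out fits included. The sign of that difference turned for Pth on TPM with limma (0.77), in batch 1 alone (4.55) and without BCAM low replicate 7 (4.52), and for Chga in batch 1 alone (0.85) and without BCAM low replicate 7 (0.92). Leaving out 1 library gave -4.44 to 4.52 for Pth and -4.46 to 0.92 for Chga. Calls among the 5 lists between BCAM high and differentiated (12) were 23 without the filter, where 61 genes were tested, and 24 on TPM with limma; leaving out 1 library gave 11 to 14. Between BCAM low and differentiated (14) that range was 11 to 17. Between BCAM high and BCAM low (1) there were 0 calls without the filter, without the batch term and on TPM with limma. In batch 1 alone there were 2, and Calcb was not among them. Leaving out 1 library gave 0 to 2. For the batches of the differentiated group (13) the range was 7 to 15. The Spearman value of Pth with Chga stayed at 0.991 to 1 when 1 library was left out. Under the replicate block, calls among the lists were 13, 13 and 1, and Pth and Chga differed between BCAM high and BCAM low by -0.73 and -1.97. Same-numbered libraries deviated together by correlations of 0.0351 to 0.193, all positive. Differently numbered libraries were not compared, so these values do not settle whether the numbers are pairs. The main fit does not treat them as pairs. The fits without batch, with the block and in 1 batch could not be run for the batch contrast. The cause of these changes was not tested. Depth limits Chgb, Gcm2 and Scg2 most, since their counts were at most 8, 67 and 52 in a library.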
